A study of Mus musculus with 8 samples.

Results

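The 38 genes described here encode the canonical Wnt pathway as it is read in the kidney: β-catenin and the complex that destroys it, the TCF/LEF factors, feedback targets, the R-spondin axis, frizzled receptors, LRP coreceptors and secreted antagonists. They were taken by gene symbol from a list of pathway members, a rule that uses no measured value, although the list was drawn up with earlier results of these data known. Each matched exactly 1 of the 47729 gene rows of the deposited tables. All 38 passed the filter on low counts that left 18548 genes for testing. RNA was sequenced from whole kidneys of mice on postnatal day 8, with 4 libraries from Six2Cre+ Kctd1 fl/fl mice, called knockout here, and 4 from control littermates, called wildtype after their genotype label. The labels do not give the alleles of the controls, so whether they carried Cre or floxed Kctd1 is not known, and they do not say that the 4 libraries of a genotype came from separate animals. The p-values below therefore measure the spread between these libraries. Six2-driven Cre acts in nephron progenitors and reaches the nephron epithelium, whereas collecting duct, stroma, vessels and immune cells lie outside that lineage and keep Kctd1 in the knockout.

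In the absence of a Wnt signal, a complex of Axin, Apc and the kinase Gsk3b marks β-catenin for destruction. A Wnt protein that binds a frizzled receptor and Lrp5 or Lrp6 halts this, and β-catenin then works with TCF/LEF factors in the nucleus to switch on target genes, many of which restrain the signal in turn. In kidney development, Wnt9b from the ureteric bud induces nephron progenitors and Wnt4 drives their conversion to epithelium, and in the mouse new nephrons stop forming within days of birth. KCTD1 is known to bind and repress AP-2 transcription factors, and in cultured cells it has also been described to lower β-catenin protein. RNA levels do not measure β-catenin protein; the feedback targets report on its activity only through their transcripts.

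Libraries held 14457760 to 20741076 counts. CPM values are counts scaled to the library total with TMM factors, and TPM values, which also account for transcript length, are used where genes are compared with each other. Kctd1 itself was measured at 22.4, 25.4, 25.8 and 23.5 CPM in knockout replicates 1 to 4 and at 32.1, 28.9, 32.6 and 32.6 CPM in wildtype replicates 1 to 4. The genotypes did not overlap, at 24.3 ± 1.57 against 31.6 ± 1.77 CPM (SD, n = 4 each), and knockout was at 76.9% of wildtype. The adjusted p was 0.279 by edgeR's quasi-likelihood test and 0.0181 by DESeq2, the lowest of a range up to 0.63 over the alternatives. Kidney markers were abundant, with 8 proximal tubule genes summing to 3910 to 4203 CPM, and 4 neuronal genes together stayed at or below 5.73 CPM. Xist reads were abundant in knockout replicate 2 and wildtype replicate 3 only. Knockout replicate 2 also had 5.39% of its counts on a ribosomal RNA row, against 0.361% to 1.141% in the other libraries.

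None of the 38 genes passed the adjusted threshold of 0.05 in edgeR's quasi-likelihood test, in which 15 of all 18548 genes passed, 0.0809% of them (0.0323% higher and 0.0485% lower in knockout). At an unadjusted p under 0.05, 1 member was lower in knockout, Sfrp1, beside 6.18% of all genes in either direction (3.11% higher and 3.08% lower). DESeq2 called 1 member lower, again Sfrp1, beside 0.847% of all genes (0.306% higher and 0.541% lower). In 2 of 38 members, Sfrp1 and Fzd1, the highest knockout library lay below the lowest wildtype one, and the reverse was seen in none. Such separation was seen in 4.03% of all genes, with knockout lower in 2.06% and higher in 1.97%. Log2 fold changes of the members were positive in 20 and negative in 18, with a median of 0.006 against 0.001 over all tested genes. The median of their absolute size was 0.083, against 0.111 over all tested genes.

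The precision differed between genes. A 95% interval was computed for each gene on its own, without adjustment for the number of genes. In 29 of 38 members this interval lay within a 1.5-fold difference in either direction, and in 22 of 38 within a 1.25-fold difference. The 9 genes with wider intervals were Notum, Rnf43, Lgr5, Lgr6, Rspo1, Rspo3, Fzd3, Wif1 and Dkk1. For these 9 a difference of 1.5-fold was not excluded at this depth and number of libraries.

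**Figure D1:**
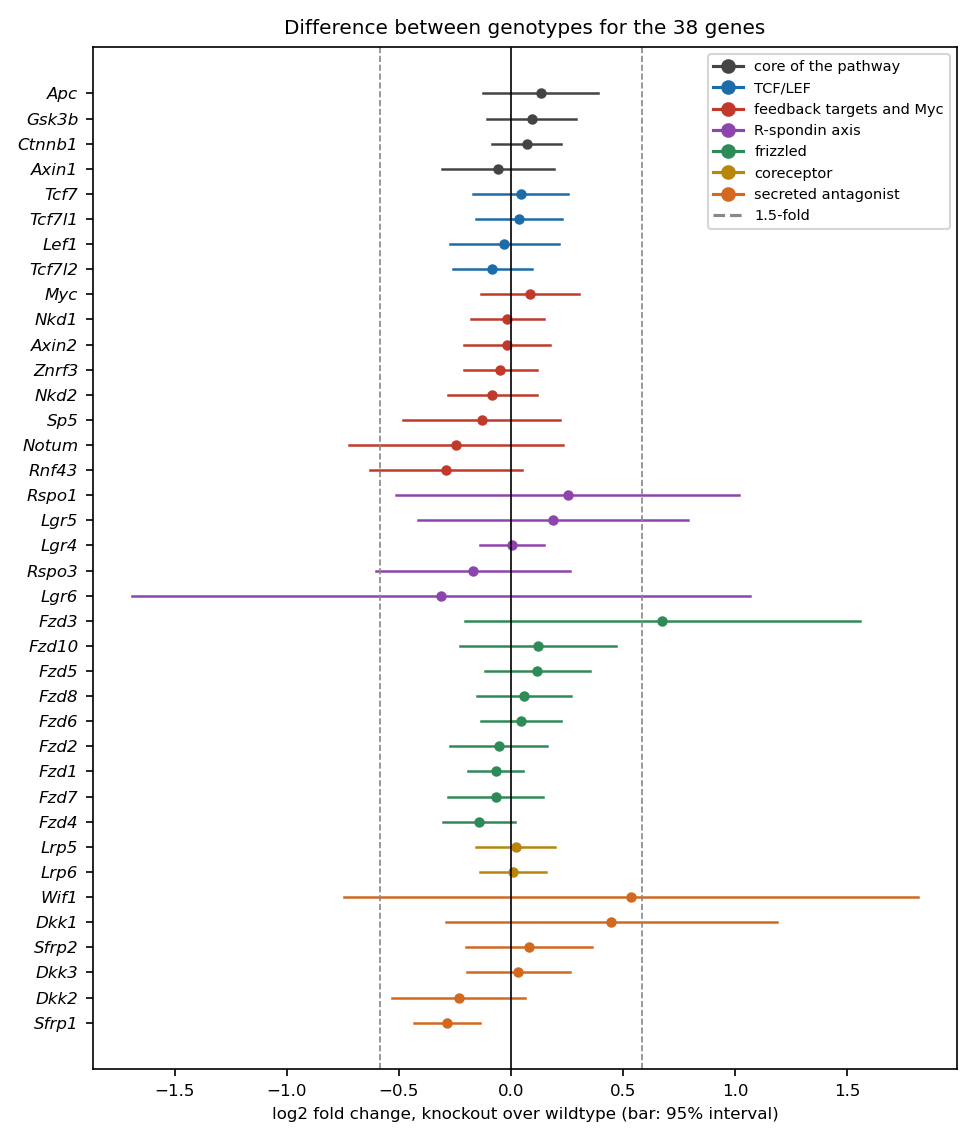
Log2 fold change of knockout over wildtype on the horizontal axis for the 38 genes, coloured by role, with points for the estimates and bars for the 95% intervals; dashed lines mark a 1.5-fold difference. Only the interval of Sfrp1 leaves out 0, and the widest belong to Lgr6, Wif1 and Fzd3.

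All 4 core genes of the pathway had 95% intervals within a 1.5-fold difference, and 3 of them, all but Apc, within a 1.25-fold difference. Ctnnb1, which encodes β-catenin, stood at 822, 832, 712 and 748 CPM in knockout replicates 1 to 4 and at 729, 726, 751 and 760 CPM in wildtype replicates 1 to 4. The groups overlapped, with knockout both highest and lowest, and the log2 fold change was 0.07 ± 0.07 (SE; 95% interval -0.08 to 0.22). Apc, the scaffold that gathers the destruction complex, had a log2 fold change of 0.13 ± 0.12, with 84.4 to 121 CPM in knockout and 79.9 to 95.04 CPM in wildtype. The kinase gene Gsk3b was at 0.09 ± 0.09 and Axin1, the limiting scaffold, at -0.06 ± 0.11. Of these 4 estimates 3 were above 0, all but Axin1, and none of the 4 passed an unadjusted p of 0.05. The estimate of Apc was -0.0013 without knockout replicate 1, its highest library.

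By level per length, Ctnnb1 was the most abundant of the 38 genes, at 128 ± 7.75 TPM in wildtype (SD, n = 4). It was followed by Sfrp1 at 71.2 ± 6.5 TPM, Axin1 at 45.5 ± 7.3 TPM, Sfrp2 at 23.9 ± 3.49 TPM, Lgr4 at 20.4 ± 1.89 TPM and Fzd1 at 18.5 ± 0.601 TPM. Sfrp2 and Lgr4 did not differ beyond their spread, nor did Lgr4 and Fzd1. The lowest were Lgr6 at 0.548 ± 0.425 TPM, Lgr5 at 0.314 ± 0.0272 TPM, Wif1 at 0.304 ± 0.229 TPM and Dkk1 at 0.204 ± 0.067 TPM. Neighbours in this order overlapped in their wildtype libraries, whereas Lgr5 and Dkk1 did not, at 0.286 to 0.351 and 0.125 to 0.282 TPM. The high place of Axin1 depends on the length used for it. The ratio of its deposited counts to its TPM corresponds to 740 bases, against 3777 bases for its longest annotated transcript. For Fzd3 the same ratio gives 2647 bases against 12734, and for Rnf43 1430 against 4310 bases, whereas for Sfrp1 it gives 4752 against 4372. These 4 genes were chosen for this remark after their values were seen.

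**Figure D2:**
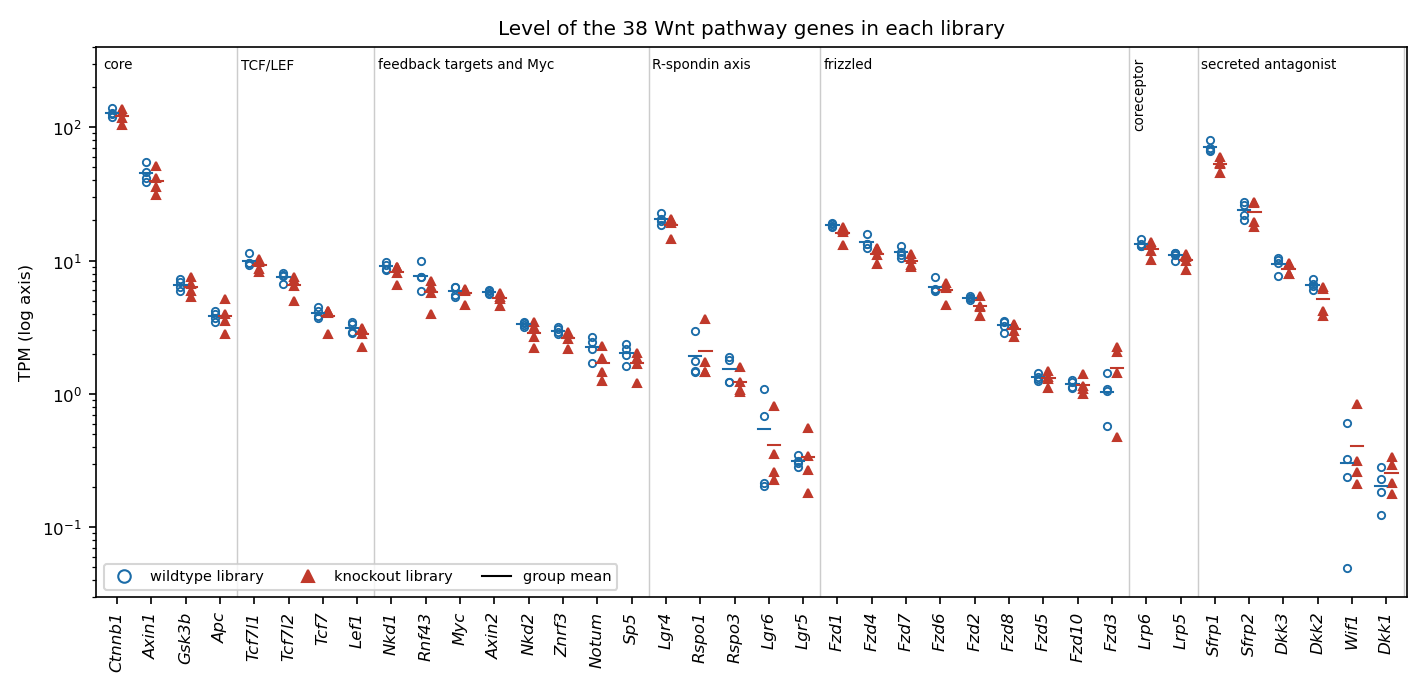
TPM on a log axis for each of the 38 genes, grouped by role, with open circles for the 4 wildtype libraries, triangles for the 4 knockout libraries and short lines for group means. Ctnnb1 and Sfrp1 lead at 128 and 71.2 TPM in wildtype, Lgr5, Wif1 and Dkk1 close the order below 0.4 TPM, and the symbols of the genotypes overlap in most genes.

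The 4 TCF/LEF factors, the DNA-binding partners of β-catenin, did not differ detectably between genotypes. Tcf7l1, which mainly represses targets, was the most abundant of them at 9.96 ± 0.936 TPM in wildtype. It was measured at 46.3, 51.5, 41.5 and 46.8 CPM in knockout and at 43.5, 46.2, 42.7 and 49.1 CPM in wildtype, a log2 fold change of 0.04 ± 0.09. Lef1, a factor that is itself a β-catenin target, was at 13.8, 14.6, 15.8 and 14.5 CPM in knockout and 16.3, 14.6, 16.0 and 13.0 CPM in wildtype. The wildtype libraries enclosed all 4 knockout values, and the log2 fold change was -0.03 ± 0.11 (95% interval -0.27 to 0.21). Tcf7 and Tcf7l2 had log2 fold changes of 0.04 ± 0.10 and -0.08 ± 0.08. All 4 intervals lay within a 1.25-fold difference.

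The feedback targets are the usual transcript readout of β-catenin activity. The 8 genes of this role are Axin2, Nkd1, Nkd2, Notum, Rnf43, Znrf3, Sp5 and Myc. Upstream sequence from RefSeq (GRCm38.p6) was at hand for 23 of the 38 members; Apc, Axin1, Notum, Znrf3, Lgr5, Dkk3, Sfrp1, Myc, Lrp5, Lrp6, Fzd2, Fzd3, Fzd6, Fzd8 and Rspo3 were not matched. The 250 bases before each annotated start were searched on both strands for CTTTGA, the core of the TCF/LEF binding motif, whose reverse complement is TCAAAG. Sp5 and Axin2 are printed whole because they show a well-known target with and without the motif in this window. Capitals mark the motif, and both run 5′ to 3′ on the plus strand. Sp5 lies upstream of its start at chr2:70474673-70474922 and Axin2 at chr11:108920099-108920348.
Sp5: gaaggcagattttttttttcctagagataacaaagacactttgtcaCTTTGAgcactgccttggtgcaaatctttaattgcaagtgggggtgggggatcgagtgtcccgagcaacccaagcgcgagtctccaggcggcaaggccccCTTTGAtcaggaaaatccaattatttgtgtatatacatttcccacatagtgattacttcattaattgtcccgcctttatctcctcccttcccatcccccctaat
Axin2: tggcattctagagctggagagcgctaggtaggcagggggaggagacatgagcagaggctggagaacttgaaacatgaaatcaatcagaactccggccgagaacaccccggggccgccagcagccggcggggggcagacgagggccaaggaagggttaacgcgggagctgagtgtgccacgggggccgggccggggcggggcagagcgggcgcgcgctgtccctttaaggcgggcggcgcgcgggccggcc

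The motif stood in the window of 5 of the 23 members (21.7%), namely Dkk1, Fzd1, Gsk3b, Lef1 and Sp5, against 15.8% of the 27025 genes of the table. Lef1 and Dkk1, like Sp5, held it at more than 1 place. The matches in Lef1 lie at chr3:131156104-131156129 and chr3:131156164-131156189 on the plus strand, and those in Dkk1 at chr19:30549655-30549680 and chr19:30549598-30549623 on the minus strand. The start used for Lef1 is an alternative one inside the gene, downstream of its first annotated base, and the Dkk1 window overlaps the gene as GENCODE annotates it. The matches are shown with the bases around them.
Lef1, 180 bases before a start: aaatacatggTCAAAGgaaaataggt
Lef1, 120 bases before a start: ttgtctgttcTCAAAGtcaggtcttg
Dkk1, 174 bases before a start: ggggagagtgTCAAAGtcctccctgc
Dkk1, 117 bases before a start: cctcccaaagCTTTGAaatcccatcc

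Axin2, the feedback scaffold most often used to report β-catenin activity, was measured at 24.0, 25.5, 22.3 and 21.6 CPM in knockout and at 24.1, 23.8, 23.6 and 23.1 CPM in wildtype. The knockout libraries lay on both sides of the wildtype ones. The log2 fold change was -0.02 ± 0.09 with a 95% interval of -0.21 to 0.17, so knockout was at 86.4% to 113% of wildtype. Nkd1, which binds Dishevelled and dampens the signal, was at 73.9, 72.4, 68.6 and 71.2 CPM in knockout and 73.6, 71.1, 78.8 and 66.1 CPM in wildtype. All knockout values fell inside the wildtype range, and the log2 fold change was -0.02 ± 0.07. Its relative Nkd2 was at -0.08 ± 0.09.

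Sp5, a transcription factor gene with the motif shown above, was measured at 7.80, 6.12, 7.18 and 6.12 CPM in knockout and 8.65, 6.28, 8.01 and 6.83 CPM in wildtype. The groups overlapped, and the log2 fold change was -0.13 ± 0.16 (95% interval -0.48 to 0.22). Notum, a secreted enzyme that inactivates Wnt proteins, was at 5.72, 4.78, 3.17 and 4.33 CPM in knockout and 6.33, 4.28, 5.89 and 4.86 CPM in wildtype, a log2 fold change of -0.25 ± 0.21. Its lowest library was knockout replicate 3 and its counts were as few as 46 in a library. Myc, a proliferation gene regulated by many pathways, was the only target with a positive estimate, 0.09 ± 0.10.

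Rnf43 and Znrf3 encode membrane ubiquitin ligases that remove frizzled receptors from the cell surface. Rnf43 was measured at 18.1, 13.4, 14.8 and 15.7 CPM in knockout and 14.4, 19.3, 18.8 and 23.2 CPM in wildtype. Wildtype replicate 1 lay among the knockout libraries and the other 3 wildtype libraries above them. The log2 fold change was -0.29 ± 0.15 with an unadjusted p of 0.0857 and an adjusted p of 0.842 by edgeR's quasi-likelihood test, so the difference did not pass. Znrf3 was at 33.6, 34.3, 30.9 and 32.9 CPM in knockout and 34.7, 34.5, 32.3 and 34.6 CPM in wildtype. The estimate was -0.05 ± 0.07, and the wildtype library at 32.3 CPM overlapped the knockout ones. Of the 8 targets, 7 had a negative estimate, with a median of -0.065, and none passed at an unadjusted p of 0.05. Their summed level was 187 to 207 CPM in knockout and 199 to 213 CPM in wildtype.

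**Figure D3:**
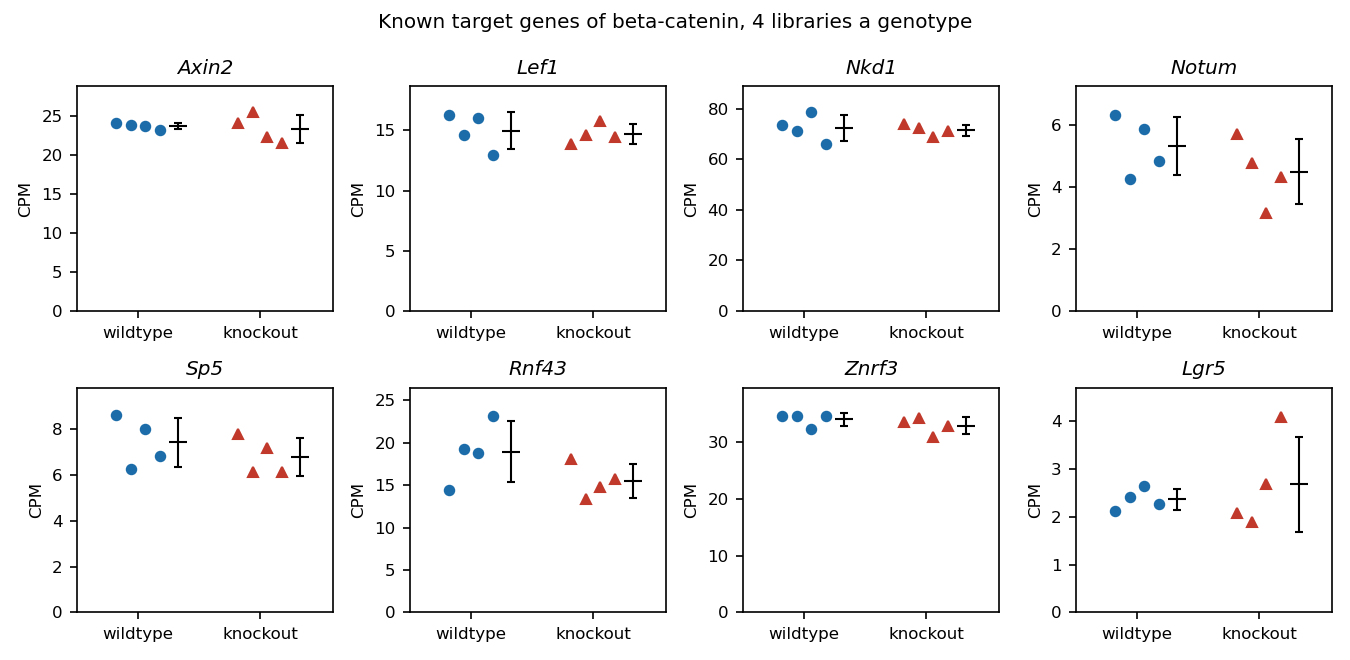
CPM in each library for Axin2, Lef1, Nkd1, Notum, Sp5, Rnf43, Znrf3 and Lgr5, with circles for wildtype, triangles for knockout and, beside them, the mean with its SD (n = 4). The genotypes overlap in all 8 panels, and the means of Axin2 are 23.3 in knockout and 23.7 in wildtype.

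Whether the targets vary together from library to library was examined by correlating Axin2 with 9 other genes over the 8 libraries, on log2 CPM. The relation with Lgr5 was negative, with Pearson's r of -0.88 (exact permutation p = 0.00241, adjusted 0.0217 over the 9) and Spearman's rho of -0.90 (exact permutation p = 0.00456, adjusted 0.0411). Without the 2 libraries farthest from the median of Axin2, knockout replicates 4 and 2, r was -0.67. With 1 library left out, the number of relations that passed after adjustment was 0 in 6 of the 8 fits. None of the other 8 relations passed on this scale, with r from -0.24 for Tcf7 to 0.57 for Znrf3. On log2(TPM + 0.1), with no further scaling between libraries, 5 of the 9 passed. In TPM, knockout replicate 2 was the lowest of the 8 libraries in Axin2 (4.56 TPM) and Nkd1 (6.59 TPM), which it was not in CPM. A shift of a whole library enters such correlations, so the 5 are not read as targets varying together. The part of such a shift was not tested. The measured spread of Axin2 in CPM was as large as counting alone gives, as described below, and Lgr5 had 33 to 82 counts per library. The part of counting error in these correlations was not tested.

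The R-spondin axis raises Wnt sensitivity: R-spondins bind Lgr receptors and hold Rnf43 and Znrf3 away from the frizzleds. Lgr4, its main receptor here at 20.4 TPM, was at 187 to 195 CPM in knockout and 173 to 202 CPM in wildtype, a log2 fold change of 0.00 ± 0.06. Lgr5, a receptor known as a stem cell marker and a target in other organs, was at 2.07, 1.89, 2.69 and 4.08 CPM in knockout and 2.13, 2.41, 2.65 and 2.26 CPM in wildtype. Knockout replicate 4 was the highest and knockout replicate 2 the lowest of the 8, and the log2 fold change was 0.19 ± 0.27. The ligand genes Rspo1 and Rspo3 were at 0.25 ± 0.34 and -0.17 ± 0.20. Lgr6 had 33 to 222 counts, and its log2 fold change of -0.31 ± 0.60 changed sign when single libraries were left out, as given in the closing part.

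The 9 frizzleds among the members, receptors of Wnt proteins, ran from 1.04 TPM for Fzd3 to 18.5 TPM for Fzd1 in wildtype. Fzd9, which is among the further pathway genes below, was at 0.107 TPM and was not tested. Fzd1 was at 133, 141, 140.5 and 138 CPM in knockout and 147, 147, 143 and 142 CPM in wildtype. The highest knockout library, at 141 CPM, lay just below the lowest wildtype library, at 142 CPM, and the log2 fold change of -0.07 ± 0.06 had an unadjusted p of 0.248. Fzd4, a receptor prominent in vessels, was at 163, 166, 150.5 and 158 CPM in knockout and 170.1, 179, 161 and 194 CPM in wildtype. The group ranges overlapped, and the log2 fold change was -0.14 ± 0.07 with an unadjusted p of 0.0781.

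Fzd3, a receptor mostly linked to planar cell polarity, had the largest estimate of the 38 genes. It was at 10.8, 3.003, 9.93 and 6.42 CPM in knockout and 4.75, 5.21, 2.65 and 6.20 CPM in wildtype. Knockout replicate 2 lay below 3 of the 4 wildtype libraries while the other 3 knockout libraries lay above all of them. The log2 fold change of 0.67 ± 0.39 had an unadjusted p of 0.118 and a 95% interval of -0.21 to 1.56. The other 6 frizzleds, Fzd2, Fzd5, Fzd6, Fzd7, Fzd8 and Fzd10, had log2 fold changes of -0.07 to 0.12, and their groups overlapped. The coreceptor Lrp6 was at 159, 156, 140.3 and 146 CPM in knockout and 142, 157, 145 and 153 CPM in wildtype. Its log2 fold change was 0.01 ± 0.07 and that of Lrp5 was 0.02 ± 0.08, and both intervals lay within a 1.25-fold difference.

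Among secreted antagonists, Sfrp1 was the member whose genotypes stood apart. Sfrp1, at chr8:23411502-23449632 (GRCm38), encodes a secreted protein with a frizzled-like domain that binds Wnt proteins outside the cell. It was measured at 449, 510.1, 468 and 480 CPM in knockout replicates 1 to 4 and at 572, 566, 560 and 625 CPM in wildtype replicates 1 to 4. All knockout libraries lay below all wildtype ones, at 477 ± 25.5 against 581 ± 29.7 CPM (SD, n = 4 each). Knockout was at 82.1% of wildtype (95% interval 74.1% to 90.9%), a log2 fold change of -0.28 ± 0.07. The unadjusted p was 0.0015. The adjusted p by edgeR's quasi-likelihood test was 0.297, which does not pass, and that by DESeq2 was 0.00843, which does. Over all alternatives the adjusted p ran from 0.00843 to 0.737. When each library was left out in turn, the log2 fold change stayed between -0.32 and -0.25 with an unadjusted p of at most 0.00543. In TPM, from the same reads, the genotypes did not overlap either, with 45.4 to 59.4 TPM in knockout and 66.1 to 80.6 TPM in wildtype. That scale includes a shift over all genes, whose median log2 fold change on log2(TPM + 0.1) was -0.141, so it is not separate evidence.

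In whole kidney RNA, fewer cells of a type and less RNA of a gene per cell cannot be told apart. Marker sums of some cell types, inside and outside the nephron, were lower in the same knockout libraries, and those of others overlapped between genotypes. The 7 markers of the distal convoluted tubule summed to 850.1 to 1023 CPM in knockout and 1251 to 1350 CPM in wildtype, and all 7 had negative log2 fold changes, 2 of them past edgeR's adjusted threshold. The 6 podocyte markers summed to 1185 to 1322 CPM in knockout and 1466 to 1518 CPM in wildtype, and all 6 were negative, none past that threshold. None of these markers was at 0. Sums of the 8 nephron progenitor markers were 48.8 to 56.0 CPM in knockout and 48.6 to 56.1 CPM in wildtype, and Six2 among them had at most 10 counts in a library. The 6 macrophage markers, of a cell type outside the Cre lineage, summed to 111 to 119 CPM in knockout and 123 to 129 CPM in wildtype. Of these, 4 had negative log2 fold changes and 2 positive. Sums overlapped for proximal tubule, at 3982 to 4203 CPM in knockout and 3910 to 4100 CPM in wildtype. Of its 8 markers, 6 had positive and 2 negative log2 fold changes, and the genotypes overlapped in 5. Slc13a3 and Slc22a6 were higher without overlap, at 128% and 111% of wildtype, and Slc5a2 was lower without overlap, at 78.1%. Sums of the 5 thick ascending limb markers also overlapped, at 2372 to 2748 CPM in knockout and 2197 to 2400 CPM in wildtype. Among them, 2 were positive and 3 negative. Umod was at 145% of wildtype without overlap, and Slc12a1 at 83.7% with overlapping groups. The adjusted p of Umod was 0.0599 by edgeR's quasi-likelihood test and 2.8e-06 by DESeq2. An overlap of sums thus does not show that single markers were unchanged. The 6 intercalated cell markers summed to 466 to 542 CPM in knockout and 438 to 482 CPM in wildtype, and all 6 were positive. The 6 urothelium markers were also all positive, at 46.0 to 52.7 and 39.5 to 48.9 CPM. Sums overlapped for stroma, at 4423 to 5235 and 4228.5 to 5037 CPM, with 6 of 8 markers positive. Those of endothelium overlapped too, at 639 to 743 and 716 to 784 CPM, with 5 of 6 markers negative. The part of these cell types in the value of Sfrp1 was not tested.

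In the other 5 antagonists the genotypes overlapped. Dkk2, which binds the LRP coreceptors, was at 27.4, 39.4, 44.3 and 42.7 CPM in knockout and 45.6, 43.2, 44.6 and 47.5 CPM in wildtype. Knockout replicate 1 was far below the other 7 libraries, and the log2 fold change was -0.23 ± 0.13 with an unadjusted p of 0.111. Dkk1, an LRP antagonist and β-catenin target with the motif shown above, was at 1.32, 1.06, 0.966 and 1.44 CPM in knockout and 0.974, 1.27, 0.54 and 0.769 CPM in wildtype. These values rest on 11 to 29 counts per library, and the log2 fold change was 0.45 ± 0.33. Sfrp2 and Dkk3 were at 0.08 ± 0.13 and 0.03 ± 0.10, and Wif1, with 3 to 54 counts, was at 0.53 ± 0.57. Summed over the 6 antagonists, knockout libraries held 579.7 to 679 CPM and wildtype libraries 717 to 798 CPM, most of it Sfrp1.

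Some members varied between libraries of both genotypes far more than others. The coefficient of variation (CV, the SD as a percentage of the mean) over the 8 libraries ran from 3.24% for Fzd1 to 67.6% for Lgr6, with a median of 9.07%. Each was set beside the CV that counting alone would give at that gene's counts. In 9 of 38 genes the measured CV was under 1.5 times the counting CV, in 15 it was from 1.5 to 3 times, and in 14 at least 3 times. Axin2 at 5.15% against 4.96% for counting, Znrf3 at 4.05% against 4.16% and Tcf7 at 5.92% against 5.73% varied no more than counting gives.

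At the other end, Sfrp1 had a CV of 11.6% against 1.05% for counting, a value that includes the difference between its genotypes. Ctnnb1 was at 5.81% against 0.874% and Apc at 13.8% against 2.53%. Lgr6 was at 67.6% against 13.2%, Fzd3 at 48.1% against 10.7%, Rspo1 at 41.1% against 13.4% and Rnf43 at 18.8% against 5.90%.

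**Figure D4:**
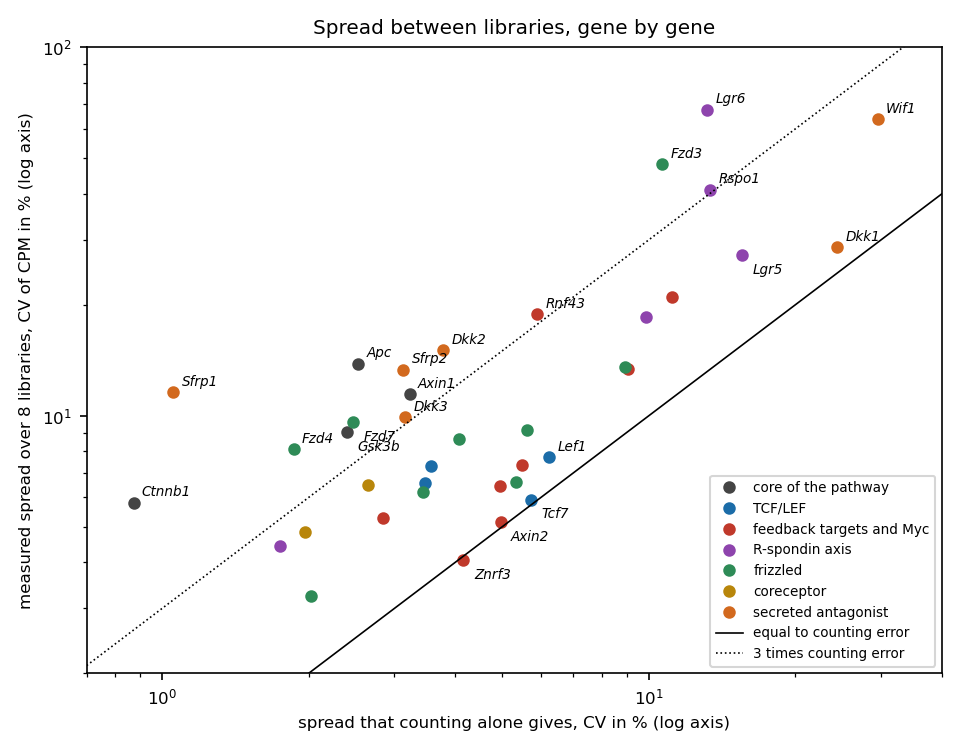
Measured CV over the 8 libraries (vertical) against the CV that counting alone gives (horizontal), both in percent on log axes, with 1 point per gene coloured by role; the solid line marks equality and the dotted line 3 times the counting value. Axin2, Znrf3 and Tcf7 lie on the solid line, and Sfrp1, Ctnnb1, Lgr6 and Fzd3 lie above the dotted one.

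KCTD1 is known as a repressor of AP-2 factors, so the same upstream windows were searched for GCCNNNGGC, the consensus of AP-2 sites, which is its own reverse complement. It stood in 5 of the 23 members (21.7%), namely Ctnnb1, Fzd10, Fzd4, Gsk3b and Lgr4, against 15.4% of all genes of the table. A gene can have several annotated starts and hence several windows. The starts used for the Ctnnb1 matches are alternative ones inside the gene, downstream of its first annotated base. The matches of Ctnnb1, Lgr4 and Fzd4 are shown because these are the most abundant genes that hold one. They lie on the plus strand at chr9:120933230-120933258, chr9:120933522-120933550, chr2:109917605-109917633 and chr7:89404216-89404244 in the order of the lines, and capitals mark the match.
Ctnnb1, 160 bases before a start: actccacccgGCCCGCGGCggcggcccgc
Ctnnb1, 46 bases before a start: gtcctgtgaaGCCCGCGGCccggggaggc
Lgr4, 32 bases before the start: taacccggcgGCCAGGGGCtcccgaggcg
Fzd4, 140 bases before the start: agaggatcaaGCCGCGGGCgggggcctga

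The log2 fold changes of these 5 genes were 0.07 for Ctnnb1, 0.12 for Fzd10, -0.14 for Fzd4, 0.09 for Gsk3b and 0.00 for Lgr4. None of the 5 passed an unadjusted p of 0.05. For the 5 genes with the TCF/LEF motif they were 0.45 for Dkk1, -0.07 for Fzd1, 0.09 for Gsk3b, -0.03 for Lef1 and -0.13 for Sp5. A match of letters is a description of the sequence and does not show that a factor binds there.

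A further 89 Wnt pathway genes, listed by role, were read from the same fit, and 71 of them were tested. None passed the adjusted threshold by edgeR's quasi-likelihood test. At an unadjusted p under 0.05, 2 were higher in knockout (Wnt9b and Fbxw11) and 3 lower (Sostdc1, Ephb3 and Daam2), beside 6.18% of all genes in either direction. DESeq2 called 2 lower (Sostdc1 and Ephb3), beside 0.847% of all genes. The groups did not overlap in these same 3 lower genes, beside 4.03% of all genes in either direction and 2.06% with knockout lower. The median log2 fold change of the 71 was 0.020.

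Among the 21 ligand genes, 12 were tested. Wnt5a, a ligand that acts mostly outside the β-catenin route, had the highest mean, 12.4 ± 6.96 TPM in wildtype. Next by mean were Wnt11 at 8.88 ± 1.11 TPM and Wnt4 at 7.80 ± 1.07 TPM. Their wildtype libraries overlapped, at 7.02 to 22.6, 7.69 to 10.4 and 6.87 to 8.74 TPM in that order. The place of Wnt11 depends on its length, since its counts and TPM correspond to 1727 bases, against 3451 for its longest annotated transcript. Wnt5a varied from 48.6 to 149 CPM among the wildtype libraries alone. Wnt9b, the inducer from the ureteric lineage, was at 60.2, 42.3, 38.5 and 47.0 CPM in knockout and 30.7, 34.3, 41.8 and 40.3 CPM in wildtype. Its log2 fold change was 0.35 ± 0.15 with overlapping groups, an unadjusted p of 0.0383 and an adjusted p of 0.769 by edgeR's quasi-likelihood test. Knockout replicate 1, the highest in Wnt9b, also had the highest sum of collecting duct principal cell markers, 1139 CPM against 782 to 838 CPM in wildtype. Knockout replicates 2 to 4 had sums of 727, 782 and 842 CPM. Replicate 2 had the lowest sum of all libraries, and its Wnt9b was at 42.3 CPM, close to the highest wildtype library at 41.8 CPM. Counting alone gives a CV of 3.79% for Wnt9b. The part of these cells in the value of Wnt9b was not tested. Wnt4 and Wnt11 were at 0.13 ± 0.10 and 0.06 ± 0.13. Wnt1, Wnt3 and Wnt3a had 0 counts in all 8 libraries, which allows up to 0.145 to 0.208 CPM depending on the library (3 counts, covering counting error only).

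Sostdc1, at chr12:36314139-36318452 (GRCm38), encodes a secreted antagonist of BMP and Wnt signals known from the distal nephron. It was at 199, 204, 196 and 184 CPM in knockout and 260.4, 251, 224 and 234 CPM in wildtype, without overlap. The log2 fold change was -0.31 ± 0.07, with an adjusted p of 0.261 by edgeR's quasi-likelihood test and 0.0066 by DESeq2, the lowest of a range up to 0.708 over the alternatives. Ephb3, at chr16:21204755-21223305, encodes an ephrin receptor that is a β-catenin and TCF target in the gut. It was at 29.0, 27.1, 33.5 and 29.1 CPM in knockout and 39.5, 40.3, 35.5 and 40.8 CPM in wildtype, again without overlap. Its log2 fold change was -0.40 ± 0.09, with an adjusted p of 0.280 by edgeR's quasi-likelihood test and 0.0207 by DESeq2, the lowest of a range up to 0.632.

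Both genes, like Sfrp1, were thus lower in every knockout library while their call depended on the test. Their unadjusted p stayed at or below 0.00463 when any 1 library was left out. The marker sums of distal convoluted tubule, podocytes and macrophages given above moved the same way in the same libraries. Those of the other cell types given there overlapped between genotypes. The part of any of these cell types in these values was not tested. Daam2, a formin that links Dishevelled to the cytoskeleton, was at 65.2, 73.4, 60.4 and 70.8 CPM in knockout and 78.1, 76.6, 77.2 and 81.9 CPM in wildtype. Its log2 fold change was -0.22 ± 0.08 with an adjusted p of 0.662 by edgeR's quasi-likelihood test and 0.394 by DESeq2, the lowest of a range up to 0.943.

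**Figure D5:**
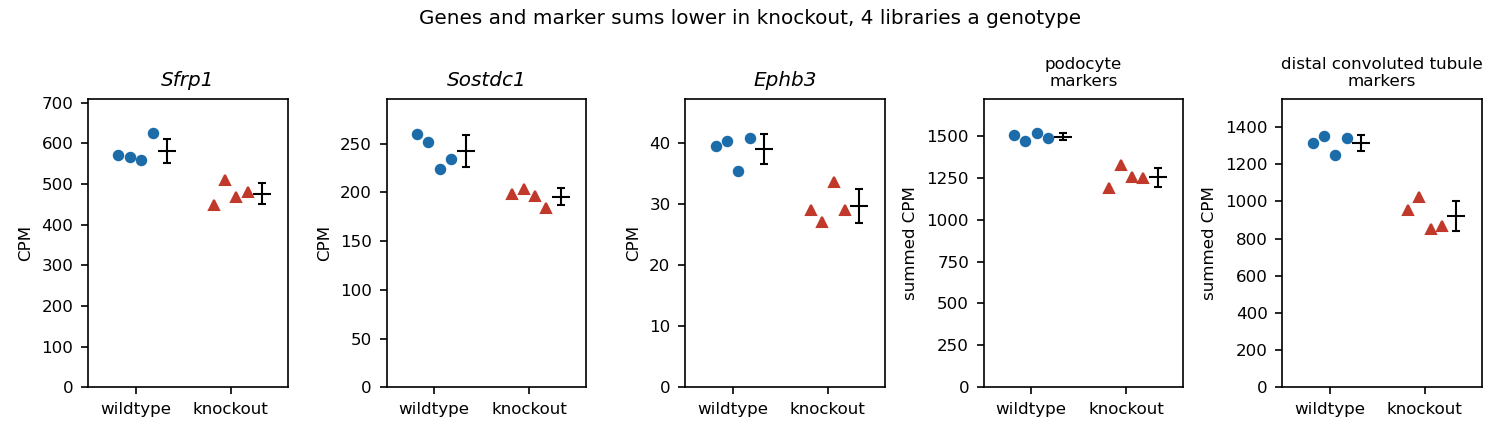
CPM per library for Sfrp1, Sostdc1 and Ephb3 and summed CPM for 6 podocyte and 7 distal convoluted tubule markers, with circles for wildtype, triangles for knockout and the mean with its SD beside them (n = 4). In all 5 panels the highest knockout library lies below the lowest wildtype one, for Sfrp1 at 449 to 510.1 against 560 to 625 CPM.

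The remaining roles gave no gene past the adjusted threshold. In ligand secretion, the acyltransferase gene Porcn was at a log2 fold change of 0.11 ± 0.14 and the Wnt carrier Wls at -0.05 ± 0.07. The alternative receptors Ror1 and Ror2 were at 0.12 ± 0.11 and -0.10 ± 0.25, and the secreted inhibitor Frzb at 0.13 ± 0.12. In the cytoplasm, Fbxw11, a part of the ubiquitin ligase that takes up marked β-catenin, was at 0.30 ± 0.14 with an unadjusted p of 0.0499, and the kinase gene Csnk1d at 0.28 ± 0.16. The nuclear cofactor Bcl9 and the corepressor Tle4 were at 0.21 ± 0.11 and -0.18 ± 0.09. Tiam1, a further target, was at 0.68 ± 0.37, with 27.6 to 54.7 CPM in knockout and 10.1 to 33.01 CPM in wildtype. Vangl2, of planar cell polarity, was at -0.12 ± 0.08.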

How the data were processed

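The authors deposited estimated counts per gene, rounded to whole numbers, and a second table of TPM values, which carries Ensembl identifiers and gene symbols. The submitters' processing notes name Salmon, DESeq2 1.14.1 and mm10; the annotation and whether strand was used in counting are not given in the sources used here. Per the labels' protocols the library kit was strand-specific. The count table holds no identifiers, so its 47729 rows were joined by order to the TPM table, in which 2 identifiers were repeated. In 13251 genes whose counts all reached 50, the log2 ratio between a gene's count and its TPM varied little from library to library (median SD 7.4e-04, against 0.242 with rows shifted). No 2 libraries agreed within sampling noise.

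Genes were filtered with filterByExpr, scaled with TMM and compared by edgeR 4.0.16 (R 4.3.3; glmQLFit with robust dispersion and glmQLFTest, genotype alone, two-sided), with Benjamini-Hochberg adjustment over 18548 genes and a threshold of 0.05. Each SE is the size of the log2 fold change over the root of its F statistic. The biological CV was 20.7%. Intervals use edgeR's total degrees of freedom, the residual ones plus those of the prior. Correlations were computed with a prior count of 2 on log2 CPM in scipy 1.17.1. Lengths behind the TPM values were scaled on 1674 genes with a single transcript. Coordinates come from GENCODE annotation of GRCm38, the assembly of mm10. The test was tried on simulated counts.

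The members and all lists were chosen with earlier results of these data known. Values in every library are given for the 8 members with the smallest p, Ctnnb1, 8 genes read as β-catenin targets (Axin2, Lef1, Nkd1, Notum, Sp5, Rnf43, Znrf3 and Lgr5) and the most abundant frizzled, coreceptor, antagonist and TCF/LEF gene. Of the other Wnt genes, up to 2 per role with the smallest p and the 3 ligands with the highest mean TPM in wildtype are named. The 14 marker lists describe the tissue, and sums of some of them are given beside results. Alternatives were other scalings and filters, DESeq2 1.42.0, limma-voom, limma 3.58.1 on log2(TPM + 1) and log2(TPM + 0.1), non-robust dispersion, a replicate block, each library left out, and both libraries with Xist reads left out.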

Additional observations from a re-analysis of the deposited data

Results flagged for a closer look

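In each group of 4 libraries, the highest or lowest library was compared with the others (Dixon's test at the 95% level), which flags about 1 group in 20 by chance. Of 112 groups of 4 looked at over the members and the other named Wnt genes, 6 had such a library, and chance alone gives about 5.6. Apc stood at 121 CPM in knockout replicate 1, against 84.4 to 89.7 CPM in the other knockout libraries. Lgr6 stood at 8.36 CPM in the same library, against 2.69 to 3.43 CPM. Tcf7 was at 19.1 CPM in wildtype replicate 1, against 16.6 to 16.9 CPM. Znrf3 was at 32.3 CPM in wildtype replicate 3, against 34.5 to 34.7 CPM. Bcl9, a nuclear cofactor of β-catenin, stood apart in both genotypes, at 52.6 CPM in knockout replicate 2 against 59.2 to 60.2 CPM and at 62.5 CPM in wildtype replicate 2 against 44.6 to 47.3 CPM. Without knockout replicate 1 the log2 fold changes of Apc and Lgr6 were -0.0013 and -0.82, against 0.13 and -0.31 with all libraries.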

How the results depend on the processing

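Of the 38 members, 25 kept the sign of their log2 fold change in all 20 alternative fits and 13 changed it in some; the 13 had absolute values of at most 0.31 in the fit reported. The number of genes called over the whole table was 15, and it was 27 without the filter, 3 without both libraries with Xist reads, 155 with DESeq2, and 6 with limma on either log2(TPM + 1) or log2(TPM + 0.1). Leaving out single libraries gave 10 to 52, with 52 without wildtype replicate 4, 29 without knockout replicate 3 and 10 without wildtype replicate 3. No member was called in any of these fits except 1 with DESeq2, Sfrp1, and DESeq2 also called 2 of the other Wnt genes. The median log2 fold change of the members ran from -0.021 (without knockout replicate 2) to 0.021. The correlations with Axin2 that passed numbered 1, against 5 on the TPM scale, where libraries were not scaled further, and 0 to 1 with a library left out. The cause of these differences was not tested.

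Log2 fold changes from TPM are given relative to the median of all genes, which was -0.106 for log2(TPM + 1) and -0.141 for log2(TPM + 0.1). Without both libraries with Xist reads, Lef1 was at 0.0062, Tcf7l1 at -0.0449, Nkd1 at 0.0201, Lgr4 at -0.0319, Lgr6 at 0.42, Dkk3 at -0.0176 and Lrp6 at -0.025. With total count scaling, Lgr4 was at -0.0127 and Lrp6 at -0.008, and with log2(TPM + 1) Lgr4 was at -0.0263, Lrp5 at -0.0055 and Lrp6 at -0.0208. With single libraries left out, ranges that crossed 0 were -0.0013 to 0.19 for Apc, -0.14 to 0.0211 for Axin1, -0.0665 to 0.0176 for Axin2, -0.0934 to 0.0126 for Lef1, -0.0174 to 0.0877 for Tcf7l1 and -0.0595 to 0.0262 for Nkd1. They were -0.0387 to 0.0351 for Lgr4, -0.094 to 0.32 for Lgr5, -0.82 to 0.29 for Lgr6, -0.0326 to 0.0973 for Dkk3, -0.0292 to 0.0647 for Lrp5 and -0.0199 to 0.0403 for Lrp6. The remaining ranges that crossed 0 were -0.12 to 0.53 for Rspo1, -0.29 to 0.0566 for Ror2, -0.0069 to 0.16 for Wnt11 and -0.42 to 0.19 for Wnt5a.

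Libraries with the same replicate number did not deviate together (r of -0.081 to 0.0363 over the 4 numbers), so the numbers were not used as pairs. With the replicate number as a block, 10 genes were called over the whole table and 0 members. Depth limits the weakest genes: counting alone gives a CV of 11.1% for Notum, 15.6% for Lgr5, 24.4% for Dkk1 and 29.5% for Wif1.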
